A study of Mus musculus with 22 samples.

Results

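The extracellular matrix and mesenchymal genes described here are 46 genes that encode collagens, basement membrane proteins, fibronectin and elastic fibre proteins, proteoglycans, matricellular proteins, matrix proteases with their inhibitors, and 2 proteins of mesenchymal cells. They were picked by name: a probe belonged to the set when the symbol in its row was 1 of the 46. All 46 symbols were found, with 97 probes, out of 21450 symbols and 30146 probes measured. The list was drawn up with results of these libraries already known, so its levels in the classes of libraries below are given as a description, without a test.

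Whole pancreas of C57Bl/6 mice was profiled with TempO-Seq. In this assay 2 short DNA probes bind side by side on each targeted RNA, are joined there, and the joined product is sequenced and counted. The dams were given the dioxin TCDD (a persistent ligand of the aryl hydrocarbon receptor) at 20 ng/kg per day, or corn oil, by subcutaneous injection 2 times per week from before mating until birth. The pups were exposed through the dam. Pancreas was taken on the day of birth from dams and from a male and a female pup of each litter. There were 4 TCDD dams, 4 TCDD female pups, 4 TCDD male pups, 4 control dams, 3 control female pups and 3 control male pups, and the number of an animal is that of its dam or litter. The age of the dams was not given. Library totals ran between 11223816 and 34911410 counts.

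Stage labels went against stage genes in 8 of the 22 libraries, so levels are described by library class. A library was of newborn type where its summed count of Afp, the fetal serum protein alpha-fetoprotein, exceeded that of Pnlip, the pancreatic lipase of mature acinar cells, and of adult type otherwise. Afp lay between 0 and 1.25 CPM (counts scaled to a library total of 1000000) in the 8 adult-type libraries and between 468 and 1487 CPM in the 14 newborn-type libraries. Pnlip lay between 40770 and 48920 CPM in adult-type and between 22.3 and 91.6 CPM in newborn-type libraries. The adult type held control dams 5 and 7, TCDD dams 8 and 11, TCDD male pups 8, 10 and 11 and TCDD female pup 6, which makes 6 libraries labelled TCDD and 2 labelled control. The newborn type held the other 14, with control dams 2 and 4 and TCDD dams 6 and 10 among them, which makes 6 labelled TCDD and 8 labelled control. The summed level of 4 Y-linked genes went against the sex label in 10 libraries, and 13 libraries went against at least 1 of their labels. Cyp1a1, a target gene of the aryl hydrocarbon receptor, was near the detection limit: it lay between 0.128 and 1.71 CPM with the TCDD label against 0.586 and 0.640 CPM with the control label in adult-type libraries, and between 0 and 0.410 CPM against 0 and 0.786 CPM in newborn-type libraries. Tiparp, another target, lay between 1.78 and 3.54 CPM with the TCDD label against 1.24 and 3.77 CPM with the control label in adult-type libraries. In newborn-type libraries Tiparp had a median of 16.4 CPM (12.7 to 18.3) against 12.2 CPM (9.77 to 16.6), and Cyp1b1 had a median of 0.965 CPM (0.332 to 1.60) against 0.317 CPM (0 to 1.28). The ranges of the labels overlapped for all 3 genes in both classes.

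Fibroblasts and related mesenchymal cells make most of the interstitial matrix of an organ, while epithelial and endothelial cells contribute to the basement membranes on which they sit. Fibrillar collagens are triple helices that assemble into fibres after their ends are removed, lysyl oxidases crosslink them, small proteoglycans sit on the fibres, and matricellular proteins tune how cells attach. In the developing pancreas, mesenchyme surrounds the branching epithelium and supplies it with growth factors, whereas in the adult gland acinar cells fill most of the volume and the stroma is sparse.

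Postn and Thbs2 had the most extreme ratios of class medians among the members, and Timp3 differed least between the classes. Promoter stretches are shown here for these genes and for the type I collagen gene Col1a2. They come from the RefSeq promoter table of build GRCm38.p6, in which 30 of the 46 members were listed, and each is the 250 bases before the transcription start, read 5′ to 3′ on the strand of the gene. Postn has 2 starts there, and the start nearest to the main annotated transcript was taken. The coordinates are chr3:54360857-54361106 on the plus strand for Postn, chr17:14694263-14694512 on the minus strand for Thbs2, chr6:4505368-4505617 on the plus strand for Col1a2 and chr10:86300162-86300411 on the plus strand for Timp3. Capitals mark matches, on either strand, to the CCAAT box (letters CCAAT), to the GC box (letters GGGCGG) and to the TATA box (letters TATAAA). The marked matches do not overlap.
Postn: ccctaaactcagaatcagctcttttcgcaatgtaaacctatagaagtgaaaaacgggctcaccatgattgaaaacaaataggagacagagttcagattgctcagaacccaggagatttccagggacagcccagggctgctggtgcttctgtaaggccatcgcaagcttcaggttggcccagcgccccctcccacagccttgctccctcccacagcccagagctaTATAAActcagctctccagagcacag
Thbs2: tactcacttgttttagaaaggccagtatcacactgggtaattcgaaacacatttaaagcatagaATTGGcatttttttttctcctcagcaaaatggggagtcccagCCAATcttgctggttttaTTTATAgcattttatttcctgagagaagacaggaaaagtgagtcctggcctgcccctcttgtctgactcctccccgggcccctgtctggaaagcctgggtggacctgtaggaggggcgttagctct
Col1a2: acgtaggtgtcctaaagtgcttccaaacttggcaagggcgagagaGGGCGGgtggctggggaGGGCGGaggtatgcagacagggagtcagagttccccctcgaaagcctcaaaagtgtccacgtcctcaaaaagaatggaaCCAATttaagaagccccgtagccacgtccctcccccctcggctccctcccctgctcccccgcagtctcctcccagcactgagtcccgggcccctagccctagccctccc
Timp3: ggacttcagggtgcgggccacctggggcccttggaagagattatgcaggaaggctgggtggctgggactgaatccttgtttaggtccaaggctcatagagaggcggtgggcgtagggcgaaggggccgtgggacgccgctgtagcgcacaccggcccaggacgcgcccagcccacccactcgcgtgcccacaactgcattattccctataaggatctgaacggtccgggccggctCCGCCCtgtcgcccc

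The Postn stretch held a TATA box match 26 bases before the start and no match to the other motifs. Thbs2 held 2 CCAAT box matches and a TATA box match, Col1a2 held 1 CCAAT box and 2 GC box matches, and Timp3 held 1 GC box match. The CCAAT box was present in 36.1% of the 36 promoter entries of members and in 33.8% of all 32851 entries. The GC box was present in 55.6% and 32.7%, and the TATA box in 19.4% and 12.4%. These matches describe letters in a window and are not binding sites. In the same table the starts of Col4a1 and Col4a2, the genes of the 2 main chains of basement membrane collagen, face away from each other on chromosome 8 and their first bases overlap by 22 bases.

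The members were far lower in adult-type than in newborn-type libraries. Their summed level lay between 106 and 247 CPM with a median of 141.6 CPM in the 8 adult-type libraries, and between 4164 and 6456 CPM with a median of 5760 CPM in the 14 newborn-type libraries. The classes did not overlap, and the lowest newborn-type library stood far above the highest adult-type one. For 45 of the 46 members every adult-type library was below every newborn-type library. Over all 11366 symbols with a mean of at least 1 CPM in either class, 73.8% showed the same and 0.519% showed the opposite. The probes of 17 listed acinar marker genes took between 34.3% and 37.8% of all counts in the adult type and between 22.4% and 29.0% in the newborn type. With only these probes left out of the totals, 67.5% of all genes were wholly lower in the adult type. The all-gene median of the log2 ratio given next was then −1.745 in place of −1.98. Genes outside that list stayed in the totals, so the part of acinar RNA as a whole was not tested. The log2 ratio of class medians (adult type over newborn type) had a median of −4.71 over the 43 members with a ratio, against −1.98 over all genes, which puts the members −2.735 from the all-gene median. Of these 43 members, 34 were at least 4-fold below the all-gene median, where 8.9% of all genes were. In whole tissue, fewer cells of a type and less RNA per cell cannot be told apart.

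Under a scaling that centres the bulk of the genes on 0 (TMM, the trimmed mean of M-values), the adult-type range was wholly below the newborn-type range for 42 members, against 13.7% of all genes, and wholly above it for 0 members, against 10.8% of all genes. The members' median log2 ratio was then −2.735 and that of all genes −0.06. Timp2, Timp3, Col15a1 and Lama1 had overlapping ranges on that scale. With only the 4 adult-type libraries labelled dam and the 10 newborn-type libraries labelled pup, the members' median log2 ratio on the library-total scale was −4.58. Ranges that are apart over all libraries stay apart in any subset, so their count says nothing further.

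**Figure D1:**
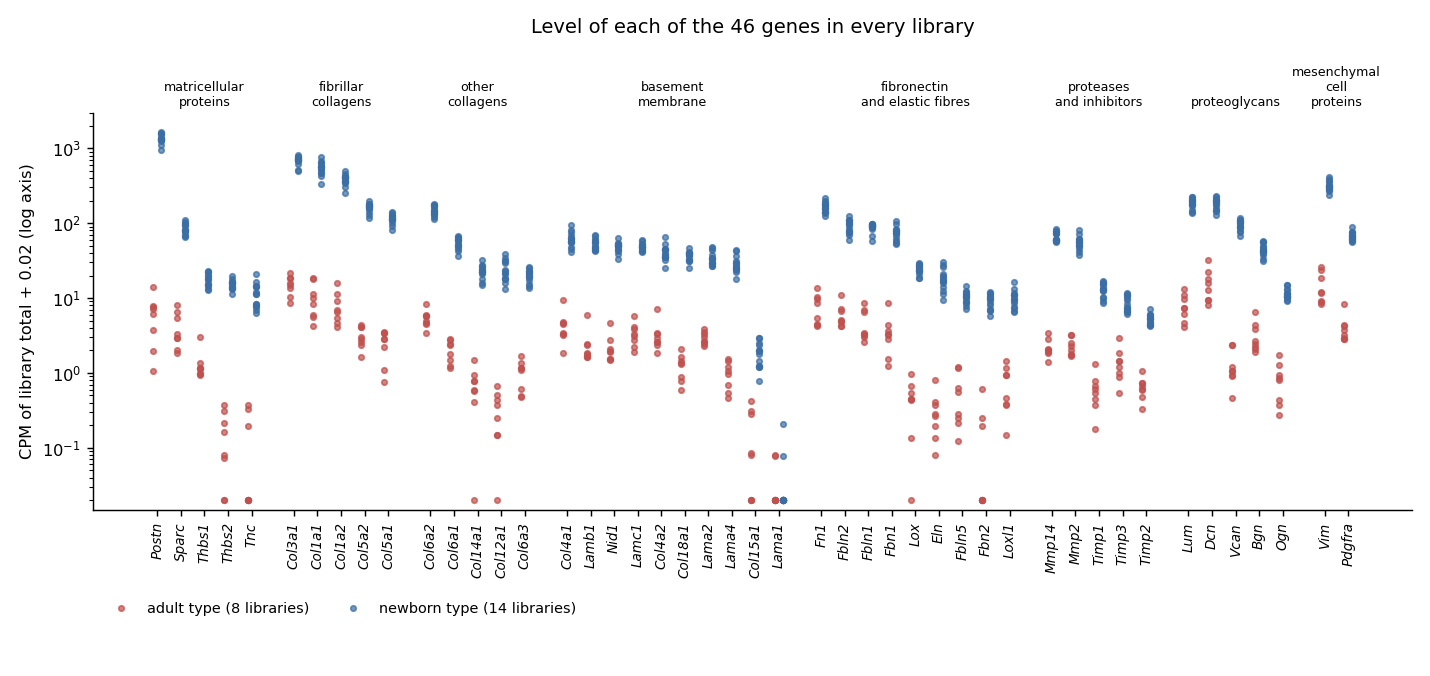
Level of each of the 46 genes, grouped by role, in every library: red points are the 8 adult-type libraries and blue points, to their right, the 14 newborn-type libraries, on a log axis of CPM plus 0.02. The red and blue points stand apart for every gene except Lama1, whose probe gave at most 3 counts in a library.

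**Figure D2:**
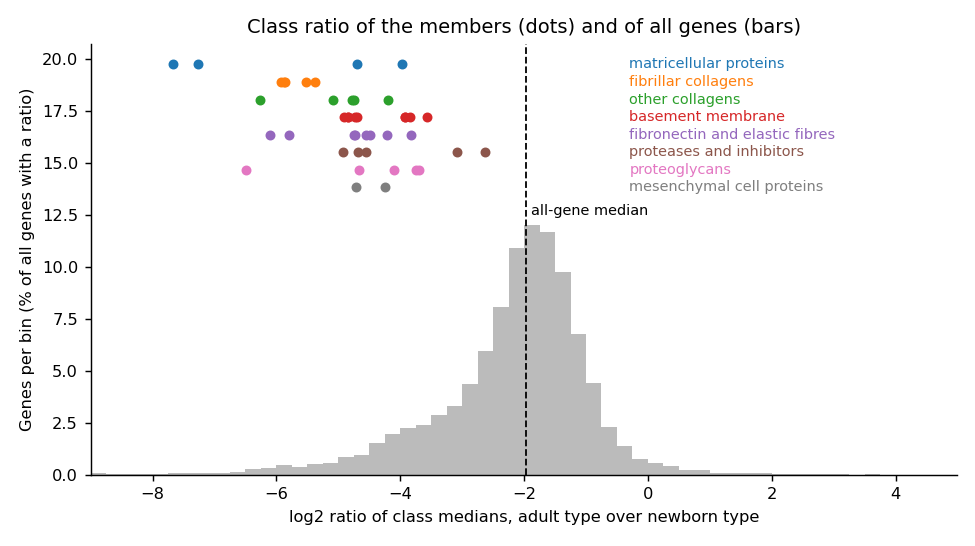
Grey bars give the distribution of the log2 ratio of class medians (adult type over newborn type) over all genes with a ratio, as a percentage of genes per bin of 0.25, and coloured dots give the members by role. The 43 members with a ratio lie between −7.67 and −2.63, to the left of the all-gene median of −1.98 marked by the dashed line.

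Matricellular proteins sit in the matrix and modulate cells rather than bear load. Their median log2 ratio was −5.98 over the 4 with a ratio, Tnc having an adult-type median of 0. It was the most extreme of the 8 roles, but close to the −5.86 of the fibrillar collagens. Thbs2, 1 of the 4, moved between −8.03 and −6.77 when 1 library was left out, so the order of these roles is not firm. Postn, which encodes periostin, a collagen-binding protein secreted by fibroblasts of growing and healing tissue, had a lowest level of 1.05, a median of 6.61 and a highest level of 14 CPM in adult-type libraries, against 938, 1346 and 1644 CPM in newborn-type libraries. That is a log2 ratio of −7.67, or 204-fold by class medians, and the lowest newborn-type library was 67.0-fold above the highest adult-type library. Its 4 probes gave log2 ratios of class medians between −7.81 and −7.56. Thbs2, encoding the anti-angiogenic glycoprotein thrombospondin 2, was close to the detection limit in the adult type, with 18 counts over the 8 libraries and 0 counts in 2 of them, against 3536 counts over the newborn type. Its pooled adult-type level was 0.897% of the newborn-type level, with a 95% exact binomial interval of 0.531% to 1.42% that covers counting error only. Tnc, encoding tenascin C, had 13 counts over the adult type with 0 in 5 libraries, against 2731 over the newborn type, or 0.839% (0.446% to 1.44%). Sparc, encoding osteonectin, and Thbs1, encoding thrombospondin 1, differed less, with log2 ratios of −4.70 and −3.98. Sparc lay between 1.83 and 8.08 CPM in adult-type and between 64.6 and 111.2 CPM in newborn-type libraries.

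The 5 fibrillar collagen genes lay close together, with log2 ratios between −5.92 and −5.37. Col1a1, the gene of the main chain of type I collagen, had a lowest level of 4.24, a median of 9.17 and a highest level of 18.5 CPM in adult-type libraries, against 337, 556.5 and 756 CPM in newborn-type libraries. Col1a2, encoding its partner chain, lay between 4.13 and 15.8 CPM in adult-type and between 253 and 497 CPM in newborn-type libraries. Col3a1, encoding the reticular collagen that accompanies type I in soft organs, lay between 8.66 and 21.7 CPM and between 498 and 807 CPM. Neither type I chain nor Col3a1 had a library of one class near the other. Col5a1 and Col5a2, whose products start fibres and limit their width, had medians of 2.79 and 2.88 CPM in the adult type, against 115.7 and 167.9 CPM in the newborn type. The ratio of Col1a1 to Col1a2 counts within a library had a median of 1.18 in the adult type and 1.34 in the newborn type, and its ranges overlapped.

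The other collagens had a median log2 ratio of −4.78. Col12a1 and Col14a1, whose products decorate fibrils, had ratios of −6.26 and −5.09, and each had 0 counts in 1 adult-type library. Col6a1, Col6a2 and Col6a3, whose chains form beaded microfilaments around cells, differed less, with ratios of −4.75, −4.78 and −4.20. Col6a2 lay between 3.45 and 8.32 CPM in adult-type and between 113 and 178.5 CPM in newborn-type libraries. The ratio of Col6a1 to Col6a2 within a library was 0.366 in the adult type and 0.377 in the newborn type by medians.

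The basement membrane group had a median log2 ratio of −4.70 over its 9 members with a ratio. Col4a1 lay between 1.84 and 9.50 CPM with a median of 3.97 CPM in adult-type libraries, and between 41.6 and 95.3 CPM with a median of 60.0 CPM in newborn-type libraries. Col4a2, which shares its promoter region with Col4a1, had a log2 ratio of −3.84 beside −3.92 for Col4a1. The ratio of the 2 within a library was 1.36 in the adult type and 1.52 in the newborn type by medians, with overlapping ranges. Among laminin genes, whose chains join into a cross-shaped trimer, Lama2 had the smallest difference, at −3.57, with 2.25 to 3.83 CPM in adult-type and 26.4 to 47.9 CPM in newborn-type libraries. Lamc1, Lama4 and Lamb1 had ratios of −3.92, −4.74 and −4.84. Nid1, encoding the laminin and collagen linker nidogen 1, and Col18a1, encoding the collagen that carries endostatin, had −4.70 and −4.84. Col15a1, of a collagen at the outer face of basement membranes, gave 19 counts over the adult type and 408 over the newborn type, a pooled level of 8.20% (4.89% to 13.0%). Lama1, the early embryonic laminin alpha chain, was at the detection limit in both, with 2 counts over the adult type and 5 over the newborn type, and no direction is read from it.

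The fibronectin and elastic fibre group had a median log2 ratio of −4.64 over 8 of its 9 members. Eln, encoding elastin, had a lowest level of 0.059, a median of 0.253 and a highest level of 0.781 CPM in adult-type libraries, against 9.54, 17.4 and 30.1 CPM in newborn-type libraries, a ratio of −6.11. Lox, encoding the lysyl oxidase that crosslinks collagen and elastin, had a ratio of −5.81, while its relative Loxl1 had −3.82. Loxl1 stood nearer to the median of the group than Lox did. Fbn2, encoding the fibrillin of developing tissue, had 17 counts over the adult type, with 0 in 5 libraries, against 2070 over the newborn type, a pooled level of 1.45% (0.841% to 2.32%). Fbn1, encoding the other fibrillin, had a ratio of −4.49 and lay between 1.20 and 8.61 CPM in adult-type and between 53.4 and 106.8 CPM in newborn-type libraries. Fn1, encoding fibronectin, had −4.56, with medians of 7.00 and 165.3 CPM. Fbln1, Fbln2 and Fbln5, encoding fibulins, had −4.75, −4.21 and −4.72.

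The proteoglycans ranged widely, with a median log2 ratio of −4.11. Vcan, encoding versican, a large water-binding proteoglycan of developing matrix, had a ratio of −6.49, with 0.448 to 2.36 CPM in adult-type and 68.0 to 118.7 CPM in newborn-type libraries. Dcn, encoding decorin, a small proteoglycan of mature collagen fibres, had −3.70, with a lowest level of 8.01, a median of 14.3 and a highest level of 31.9 CPM in adult-type libraries, against 129, 186 and 229 CPM in newborn-type libraries. Lum, Bgn and Ogn, encoding the small proteoglycans lumican, biglycan and osteoglycin, had −4.67, −4.11 and −3.75. The small proteoglycans thus stood closer to the all-gene ratio than Vcan did.

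Proteases and inhibitors had a median log2 ratio of −4.56 and differed by member. Mmp2 and Mmp14, encoding gelatinase A and the membrane enzyme that activates it, had log2 ratios of −4.69 and −4.92. Timp2 and Timp3, encoding inhibitors of such enzymes, had −3.08 and −2.63, the 2 smallest differences among the members, and Timp1 had −4.56. Timp3 had a lowest level of 0.521, a median of 1.297 and a highest level of 2.89 CPM in adult-type libraries, against 6.10, 8.01 and 11.7 CPM in newborn-type libraries. The ratio of Mmp14 to Timp2 counts within a library lay between 2.83 and 6.33 with a median of 3.21 in the adult type, and between 8.28 and 18.6 with a median of 13.2 in the newborn type. In these ratios the classes did not overlap. Of the 2 genes of mesenchymal cell proteins, Vim, encoding the intermediate filament vimentin, had −4.71 and lay between 8.38 and 25.7 CPM in adult-type and between 235 and 420.3 CPM in newborn-type libraries. Pdgfra, encoding a growth factor receptor of fibroblasts, had −4.25.

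The shares of most roles in the summed member counts stood apart between the classes, while those of the other collagens, Col1a1 and Col3a1 overlapped. Postn took a median of 4.02% of the summed member counts in adult-type libraries (range 0.892% to 6.91%) and 24.1% in newborn-type libraries (21.7% to 28.4%). Matricellular genes together took 7.32% and 26.3%, and fibrillar collagen genes 23.9% and 34.3%. Proteoglycans took 18.1% in the adult type and 9.45% in the newborn type, and basement membrane genes 13.96% and 6.43%. Shares of counts depend on how well each probe works and were compared only between classes, not between genes.

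Ratios within a library do not depend on its total. Postn to Dcn lay between 0.112 and 0.887 in adult-type libraries and between 6.01 and 8.78 in newborn-type libraries. Vcan to Dcn lay between 0.0414 and 0.149 and between 0.411 and 0.660, and Col1a1 to Dcn between 0.453 and 1.25 and between 2.26 and 5.18. All 3 ranges were apart, with the adult type lower. Timp3 to Vim went the other way, with 0.0442 to 0.221 in the adult type and 0.0179 to 0.0375 in the newborn type. Sparc to Vim had nearly equal medians of 0.257 and 0.263 and overlapping ranges. Serpinh1, which is no member and encodes the collagen chaperone HSP47, had a ratio to Col1a1 of 0.115 to 0.726 in the adult type and 0.0360 to 0.0826 in the newborn type.

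**Figure D3:**
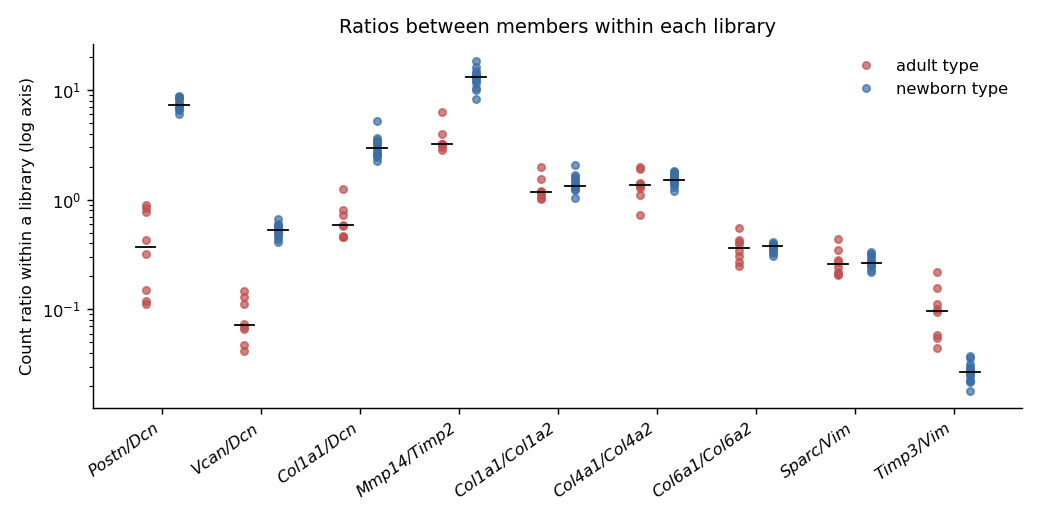
Ratio of the counts of 2 members within each library, on a log axis, with adult-type libraries (red) left of newborn-type libraries (blue) and a bar at each median. Postn, Vcan and Col1a1 relative to Dcn, and Mmp14 relative to Timp2, are lower in every adult-type library, while the pairs of chains of type I, IV and VI collagen overlap.

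Of the 97 member probes, 91 reached a mean of 1 CPM in either class. For all 91 the adult-type range was below the newborn-type range, against 73.8% of gene symbols at that level. The share over all probes was not computed. These probes hold the same reads as the gene levels above, so they add no separate support. Among the 26 genes with at least 2 such probes, the log2 ratios of class means of a gene's probes spread by a median of 0.53 and by less than 1 in 23 genes. The largest spread was 1.39, for Vcan. Only 30 members averaged at least 1 CPM in the adult type, against 45 in the newborn type, so the adult-type values rest on far fewer counts: 1808 to 4190 member counts per adult-type library, against 57025 to 145369 per newborn-type library.

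The lists of other genes of the pathway had median ratios nearer to 0 than that of the members, and their counts stand beside 73.8% of all genes apart with the adult type lower. Of the collagen folding and crosslinking genes, 19 of 23 (82.6%) had ranges apart with the adult type lower and 0 with it higher, with a median log2 ratio of −3.50. Fkbp10, Plod2 and Loxl2, encoding a collagen prolyl isomerase, a lysyl hydroxylase and a lysyl oxidase, had −5.33, −5.31 and −5.12. Ppib, Mia3 and Pcolce2, encoding a general prolyl isomerase, a collagen exporter and an enhancer of procollagen processing, had −1.10, −0.89 and −0.61. Of the genes of TGF-beta and mesenchymal signalling 14 of 22 (63.6%) were apart and lower, a smaller share than over all genes, with a median of −3.14. Fgf10, the mesenchymal growth factor that drives growth of the pancreatic epithelium, was at the far end with −4.43, beside Pdgfc with −4.10 and Tgfbr3 with −4.06. Bmp4, Ltbp3 and Pdgfb were at the near end, with −2.02, −1.16 and −1.01. Of the matrix proteases outside the set, listed with the inhibitor gene Timp4, 10 of 11 (90.9%) were apart and lower, with a median of −4.46. Mmp16, Adamts5 and Timp4 had −6.94, −5.95 and −5.13, while Mmp11, Adamts9 and Mmp15 had −2.92, −2.71 and −1.66. Of the matrix receptors 14 of 16 (87.5%) were apart and lower, with a median of −2.51, which is −0.54 from the all-gene median. Itga2, Itgb3 and Cd44, encoding a collagen receptor chain, another integrin chain and the hyaluronan receptor, had −5.36, −5.22 and −4.22, while Itga3, Itga1 and Sdc4 had −1.78, −1.44 and −1.21. The adult-type medians of Fkbp10, Plod2, Adamts5, Timp4, Mmp11 and Itgb3 lay under 0.213 CPM. That is the level of 3 counts in the shallowest adult-type library, so the ratios of these genes rest on very few reads.

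Markers of other cell types are given beside the same background of 73.8% apart and lower and an all-gene median of −1.98. Fibroblast and mesenchyme markers outside the set summed to between 21.8 and 45.7 CPM in adult-type and between 208 and 363 CPM in newborn-type libraries, with 8 apart of the 10 markers, out of 17, that reached 1 CPM in either class, and a median log2 ratio of −3.75. Twist2, a transcription factor of embryonic mesenchyme, stood at −7.31 with a highest adult-type level of 0.306 CPM, and Dpt, the fibroblast matrix gene dermatopontin, at −2.96. The adult-type median of Twist2 was 0.092 CPM, under the level of 3 counts in the shallowest adult-type library. Meox1 and Pi16 had overlapping ranges, at −2.82 and −1.32, and Pi16 thus differed less than the median of all genes. Smooth muscle and pericyte markers were apart in 9 of 9, with a median of −3.94 and sums of 8.20 to 19.8 CPM and 83.8 to 204.8 CPM, and Acta2 and Cspg4 had an adult-type median of 0. Endothelial markers were apart in 10 of 10, with a median of −2.56 that is −0.59 from the all-gene median, and islet markers in 12 of 12, with a median of −3.76, or −1.79 from it. Liver markers (6 of 6 apart) and Schwann and nerve markers (4 of 4) had −7.78 and −5.02, further from 0 than the members' −4.71. The Schwann and nerve median rests on 3 markers. Erythroid (3 of 4) and mesothelial markers (6 of 7) had −4.04 and −4.00. Duct (7 of 8) and lymphocyte markers (0 of 5) had −2.34 and −2.63, and acinar markers 0.63. The part of cell make-up in the members' levels was not tested. The summed members were 4.31 to 6.88 times the summed fibroblast and mesenchyme markers in the adult type and 15.3 to 21.5 times in the newborn type. Much of that marker sum was Dpt, with a median of 18.5 CPM beside 28.8 CPM for the sum in the adult type. In the newborn type these medians were 143.6 and 323 CPM. The adult-type mean was 0.458% of the newborn-type mean for Postn and 16.2% for Timp3. It was 0.0457% for Afp, which set the classes together with Pnlip and is no yardstick for the members.

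Within a class the members varied more between adult-type than between newborn-type libraries. The coefficient of variation of the summed level was 32.8% and 12.2%, and its median over members 50.7% and 17.1%. Summed member counts were 1808 to 4190 per adult-type library and 57025 to 145369 per newborn-type library. The part of counting error in the spread of single members was not tested. TCDD female pup 6 was the highest adult-type library for 21 of 45 members, control dam 7 for 10 and TCDD dam 8 for 7. Other markers of these libraries are given beside this. Fibroblast and mesenchyme markers outside the set summed to 45.7 CPM in TCDD female pup 6 and 45.6 CPM in control dam 7. The other adult-type libraries had 21.8 to 32.0 CPM, with 30.3 CPM in TCDD dam 8. Endothelial markers summed to 30.9 CPM in TCDD female pup 6, against 11.3 to 27.7 CPM in the other adult-type libraries. The 27.7 CPM belonged to TCDD male pup 8, whose members summed to 117 CPM. Lymphocyte markers summed to 39.1 CPM and those of spleen and lymph node stroma to 41.2 CPM in control dam 7, against at most 11.6 and 4.89 CPM in the other adult-type libraries. Adipocyte markers summed to 85.5 CPM in TCDD dam 8, against 7.78 to 31.5 CPM in the other adult-type libraries, and Adipoq, encoding adiponectin, lay between 4.10 and 17.3 CPM in the 4 adult-type libraries labelled dam but between 0 and 0.128 CPM in the 4 labelled pup. The part of these cell types in the members' levels was not tested. In the newborn type, control dam 4 was lowest for 18 members and control male pup 7 for 14, while TCDD dam 6 was highest for 15. Control dam 4 had the deepest library, and its Schwann and nerve markers summed to 50.6 CPM, against 6.22 to 37.0 CPM in the other newborn-type libraries.

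**Figure D4:**
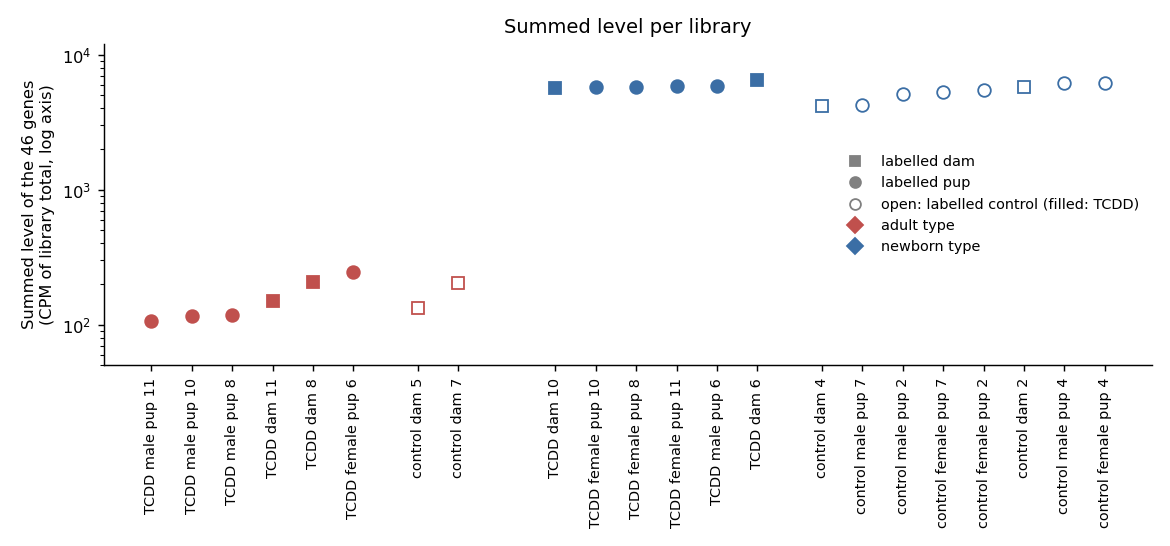
Summed level of the 46 genes in each library on a log axis of CPM, with adult-type libraries (red) left of newborn-type libraries (blue), TCDD labels filled and control labels open, and squares for libraries labelled dam. The adult-type libraries lie between 106 and 247 CPM and the newborn-type libraries between 4164 and 6456 CPM, whatever stage or chemical their label gives.

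The question of the study, what TCDD during pregnancy does to the pancreas of dams and pups, was put to the members within the classes. No member probe passed an adjusted p of 0.05 for the TCDD label in newborn-type libraries (6 TCDD, 8 control), in adult-type libraries (6 TCDD, 2 control) or in all 22 libraries with class as a term (edgeR quasi-likelihood test, Benjamini-Hochberg over all probes). The share of all probes called in either direction was 0.0% in each of these. Libraries that share a litter number entered these tests as separate samples, without a litter term, so the library counts exceed the number of dams injected. At an unadjusted p under 0.05 there were 5 of 92 member probes and 555 of 17109 probes in the newborn type, 1 of 61 and 388 of 13513 in the adult type, and 2 of 92 and 360 of 17676 with class as a term. DESeq2 and limma-voom called 0 probes in the 3 comparisons. For each of the 46 members the TCDD and control ranges overlapped in both classes, and a value past no threshold does not show that the groups were alike.

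The summed level of the members had a lowest value of 5645, a median of 5832 and a highest value of 6456 CPM in newborn-type libraries labelled TCDD, against 4164, 5382 and 6202 CPM with the control label. In adult-type libraries it was 106, 134 and 247 CPM with the TCDD label, against 132 and 203 CPM in the 2 control libraries. In both classes the groups overlapped. In the newborn type the log2 fold changes (TCDD over control) of the 92 member probes had a median of 0.06 and lay between −0.48 and 0.48, with a median standard error of 0.12, and the median over all probes was −0.0014. In the adult type those of 61 probes of 37 members had a median of 0.05 and lay between −1.20 and 1.505, with a median standard error of 0.49.

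The smallest p in the newborn type belonged to probes of Postn, Tnc, Fbln2 and Col4a1. Tnc had a lowest level of 6.91, a median of 14.6 and a highest level of 21.0 CPM with the TCDD label, against 6.34, 8.35 and 11.9 CPM with the control label. Its log2 fold change was 0.48 with a standard error of 0.19 (adjusted p = 1 in edgeR). Tnc was thus above the highest control in part of the TCDD libraries. Postn probe 30091 had −0.32 ± 0.11, Fbln2 probe 67040 had 0.27 ± 0.11 and Col4a1 probe 75736 had 0.22 ± 0.10, each with an adjusted p of 1 in edgeR. Over all its probes Postn had a median of 1332 CPM with the TCDD label and 1357 CPM with the control label. In the adult type the 4 smallest p belonged to Fbln1 (0.98 ± 0.40), Col18a1 probe 76498 (1.505 ± 0.717), Fbln2 probe 68745 (0.54 ± 0.29) and Postn probe 80551 (−1.20 ± 0.64), each with an adjusted p of 0.9999 in edgeR. With class as a term the 4 were Fbln2 probe 67040 (0.34 ± 0.16), Postn probe 30091 (−0.37 ± 0.18), Bgn probe 74662 (0.49 ± 0.25) and Col4a2 probe 63373 (0.39 ± 0.21), each with an adjusted p of 1 in edgeR.

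The TCDD effect was also compared between the classes by an interaction term. It called 0 of 93 member probes and 0.0% of 19209 probes in edgeR, while DESeq2 called 23 probes, 0 of them of members, and limma-voom 0. At an unadjusted p under 0.05 there were 11 member probes and 1523 probes in edgeR. The 4 smallest p belonged to Lama2 probe 72247 (6.26 ± 1.87, adjusted p = 0.373), Fbln1 (0.9996 ± 0.3288, adjusted p = 0.455), Col18a1 probe 76498 (1.43 ± 0.51, adjusted p = 0.484) and Col18a1 probe 69135 (−2.33 ± 0.85, adjusted p = 0.491). The Lama2 probe gave 20 counts over the 8 adult-type libraries, so its fitted change rests on a handful of reads. When only the 14 libraries whose stage label matched their class were kept, a choice made after seeing the data, Fbln1 passed with 1.69 ± 0.23 and an adjusted p of 0.00441, as 1 of 5 probes called. In those libraries Fbln1 had 8.50 and 6.95 CPM in adult-type TCDD dams 8 and 11, against 2.54 and 3.34 CPM in control dams 5 and 7. The adult-type libraries left out, which carry a TCDD pup label, had 6.49, 3.19, 3.43 and 3.01 CPM, and 2 of these 4 values lie between those of the 2 control dams. In newborn-type libraries Fbln1 lay between 83.5 and 98.6 CPM with the TCDD label and between 57.3 and 95.1 CPM with the control label.

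**Figure D5:**
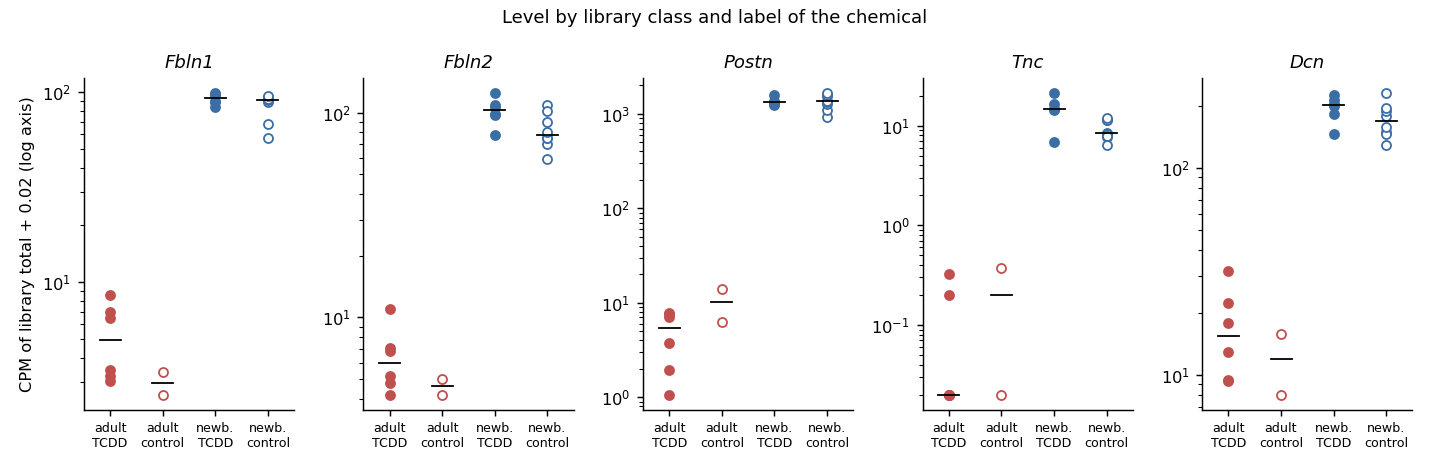
Level of 5 members by library class and label of the chemical on log axes of CPM plus 0.02, with adult-type libraries in red, newborn-type libraries in blue, TCDD labels filled, control labels open and a bar at each median. TCDD and control points overlap in both classes for all 5, and Fbln1 shows 4 of 6 adult-type TCDD libraries above both control libraries.

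In the groups as labelled, class and chemical were mixed. Of the TCDD male pups 3 of 4 libraries were of adult type, against 0 of 3 control male pups, and of the TCDD female pups 1 of 4, against 0 of 3 control female pups. The dams had 2 of 4 in each group. In male pups 0 of 91 member probes passed in edgeR, with 16 at an unadjusted p under 0.05, and the background share was 0.0% of 16176 probes with 2702 at that p. DESeq2 called 513 probes there, 0 of them of members. All 91 member probes had a log2 fold change under 0, with a median of −1.39 against −0.04 over all probes. Without TCDD male pup 6, the newborn-type library of its group, 85 of 91 member probes and 6453 of all probes passed, which leaves adult-type TCDD libraries against newborn-type control libraries, and there the label and the class cannot be told apart. The smallest p in male pups belonged to Fbln2 probe 68745 (−1.46 ± 0.47), Lamb1 probe 31042 (−1.51 ± 0.50) and Timp2 probe 63826 (−1.12 ± 0.39), each with an adjusted p of 0.273 in edgeR, and to Bgn probe 29835 (−1.40 ± 0.52, adjusted p = 0.275).

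In female pups 0 of 92 member probes passed in edgeR, 0.0% of 17513 probes did, and 0 and 299 had an unadjusted p under 0.05. The smallest p was that of Fbln2 probe 78638, with −0.84 ± 0.38 and an adjusted p of 0.996. In dams 0 of 91 passed, 0.0% of 15594 probes did, and 0 and 150 had an unadjusted p under 0.05. DESeq2 and limma-voom called 0 probes in both comparisons. The smallest p in dams was that of Fbln2 probe 67040, with 0.70 ± 0.62 and an adjusted p of 1.

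Dams were set against pups as labelled, in all 22 libraries with the chemical as a term. No member probe passed in edgeR, 0.00576% of 17353 probes passed with a higher level in dams and 0.0% with a lower one, and 0 member probes of 92 had an unadjusted p under 0.05. DESeq2 called 0 member probes and 10 probes in all, and limma-voom 0. The member with the smallest p was Col6a3, whose probe 69820 had −0.85 ± 0.47 (dams over pups, adjusted p = 0.993). With class as a further term, 0 of 93 member probes passed, 3 had an unadjusted p under 0.05, and 0.0166% of 18043 probes passed with a higher level in dams. DESeq2 and limma-voom called 0 probes in that comparison. One of the 3 probes called by edgeR was that of Adipoq (adjusted p = 0.00721). The members with the smallest p were Col1a1 probe 59966 (0.37 ± 0.16), Ogn (0.38 ± 0.17), Col6a3 probe 69820 (−0.63 ± 0.31) and Mmp2 probe 30077 (0.25 ± 0.12), each with an adjusted p of 0.9999 in edgeR. In the collagen folding, signalling, protease and receptor lists edgeR called 0 probes in each of the 9 comparisons.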

How the data were processed

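The values were deposited by the authors as raw counts (30146 probes, 22 libraries), without normalization per the file header. Per the submitters' processing notes, base calls went through bcl2fastq 2.17.1.14. For the aligner and the build, no name is given in the sources used here. Probe sequences were not used here. Counts are reads without molecular identifiers, each probe reads a small part of its transcript, and intervals and floors cover counting error only.

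Levels are counts summed over the probes of a symbol, divided by the library total and multiplied by 1000000 (CPM). Class ratios are log2 of the ratio of class medians, set beside all 11366 symbols with a mean of at least 1 CPM in either class. For members whose adult-type median lay under the floor of 3 counts, counts were pooled per class with a 95% exact binomial (Clopper-Pearson) interval. Library totals put that floor between 0.0859 and 0.267 CPM.

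Labels were tested per probe with edgeR 4.0.16 under R 4.3.3 (TMM scaling after filterByExpr, glmQLFit, glmQLFTest, Benjamini-Hochberg over all probes tested, threshold 0.05), and ± gives the SE. DESeq2 1.42.0, limma-voom (limma 3.58.1), other scalings, no low-count filter, summed probes and leaving out each library were alternatives; the fits were tested on simulated data. Animals are separate samples, and the lowest chi-square per degree of freedom between 2 libraries of a group was 7.47 over 30 pairs. The numbers of the labels mark litters, so dams and pups were also fitted with the litter as a block. The fits of the TCDD label had no litter term. Over 21 same-number pairs, deviations from the means of group and class had a median r of 0.02. No column of other samples was in the table.

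The members, gene lists, roles and tests were chosen with earlier results of these data known. Named genes were all members by role, for each test the 4 member probes with the smallest p (fewer where the text says so), and for the pathway lists the 3 largest and 3 smallest class ratios. Count ratios between members and the fits on libraries whose stage label matched their class were chosen after seeing the data. Marker lists for acinar, islet, duct, endothelial, smooth muscle, fibroblast, mesothelial, adipocyte, myeloid, lymphocyte, Schwann, erythroid, liver, spleen and dividing cells were summed in each library, and those that bear on a result are given. Promoters come from RefSeq, build GRCm38.p6.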

Additional observations from a re-analysis of the deposited data

Results flagged for a closer look

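Within each class and label of the chemical, groups of 4 to 10 libraries were searched for a single library far from the others, with Dixon's test at 95%. Of 138 groups 16 were marked, and chance alone marks about 1 in 20. In adult-type libraries labelled TCDD (n = 6), TCDD female pup 6 was far above the others for Col4a2 (7.14 CPM, next 3.43 CPM), Nid1 (4.66 CPM, next 2.08 CPM), Lamb1 (5.84 CPM, next 2.40 CPM), Thbs1 (3.01 CPM, next 1.36 CPM) and Pdgfra (8.26 CPM, next 4.40 CPM). That library also had the highest sums of fibroblast and mesenchyme markers and of endothelial markers in the class. The part of these cell types in these values was not tested. TCDD dam 8 was far above the others for Mmp14 (3.36 CPM, next 2.08 CPM).

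In newborn-type libraries labelled TCDD (n = 6), TCDD dam 6, a library whose stage label goes against its class, was far above the others for Postn (1567 CPM, next 1356 CPM), Ogn (14.9 CPM, next 11.7 CPM), Nid1 (62.5 CPM, next 54.1 CPM) and the summed members (6456 CPM, next 5867 CPM). TCDD female pup 8 was far below the others for Fbn2 (7.14 CPM, next 10.3 CPM) and TCDD dam 10 for Loxl1 (6.56 CPM, next 10.9 CPM). In newborn-type libraries labelled control (n = 8), control dam 2 was far above the others for Loxl1 (16.2 CPM, next 9.68 CPM) and Col15a1 (2.88 CPM, next 1.94 CPM), control female pup 4 for Lama2 (47.9 CPM, next 34.5 CPM) and control male pup 4 for Mmp14 (73.5 CPM, next 60.8 CPM).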

How the results depend on the processing

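The members' median log2 class ratio of −4.71 moved to −2.735 with TMM factors and to −2.787 with DESeq2 size factors, which shift the median of all genes to −0.06 and −0.11 and leave the members at −2.67 relative to all genes in both. Leaving out 1 library at a time kept the ratio between −4.79 and −4.66. Ranges that are apart cannot come to overlap in this way, so the count of 45 members apart could not fall. The count of member probes called in male pups ran between 0 and 85 when 1 library was left out, and was 85 without TCDD male pup 6 alone. In the interaction the count was 1 (Fbln1) for libraries whose stage label matched their class, against 0 with all libraries. With probes summed per gene, Bgn probe 74662 reversed with class as a term (−0.0321, against 0.492) and Col18a1 probe 69135 in the interaction (0.16, against −2.33), as each is 1 of several probes of its gene. With the litter as a replicate block, dams against pups called 0 member probes and 0 probes in all, and with the class term 0 and 5. Counts of member probes called were 0 under the other alternatives run. Without a filter on low counts, the TCDD label in adult-type libraries called 112 probes, 0 of them of members, against 0 with the filter; the cause was not tested. Depth limits the adult type, where 16 of the 46 members averaged under 1 CPM.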
